A study of Mus musculus with 4 samples.

Results

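Cholesterol synthesis and lipid transport genes were compared in cortical astrocytes isolated at postnatal day 5 (P5) from Ezh2 f/f mice, which carry loxP-flanked Ezh2 alleles, and from Ezh2 cKO mice, which carry the same alleles together with an Aldh1l1-driven Cre that deletes Ezh2 in Aldh1l1-expressing cells. The genes were chosen by name as 33 members of these pathways, and all 33 were found among the 29224 genes of the deposited tables. They comprise 16 enzymes of cholesterol synthesis, 4 genes of the SREBP system that controls them, 10 genes of lipid transport, cholesterol turnover and oxysterol sensing, and 3 enzymes of fatty acid synthesis. Cells were isolated with magnetic beads against GLAST, a glutamate transporter of astrocytes, and 2 libraries per genotype were sequenced. The series' design text names the control libraries both WT and Ezh2fl/fl, and they are called Ezh2 f/f here. The labels do not say whether the libraries of a genotype came from separate animals, so p-values measure the spread between these libraries, which may be technical.

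The brain makes nearly all of its own cholesterol, because lipoproteins of the blood do not cross the blood-brain barrier, and in the postnatal brain astrocytes are a major source of it. Synthesis runs from acetyl-CoA through mevalonate and squalene to lanosterol and then cholesterol, and its enzymes are switched on together by SREBP2 when sterols in the endoplasmic reticulum run low. Astrocytes load cholesterol onto lipoproteins built on apolipoprotein E and clusterin, which are filled by the ABCA1 and ABCG1 exporters, induced by the oxysterol receptors LXRα and LXRβ, and taken up by other cells through receptors such as LRP1.

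Total counts ranged from 16273308 to 17522152 per library. FPKM values, which scale counts to gene length and library total, were used for levels, and each fold change sets Ezh2 cKO against Ezh2 f/f, from edgeR's quasi-likelihood test on the counts, with p-values adjusted over all 16793 genes tested. A gene was called higher or lower at an adjusted p under 0.05. Ezh2 had 434 and 327 counts in Ezh2 f/f against 211 and 164 in Ezh2 cKO (log2 fold change -1.11, standard error 0.16, adjusted p = 3.26e-05). The genotypes differed widely, with 68.4% of all genes tested called, 34.7% higher and 33.6% lower, and counts of members are read against these shares. All 33 members passed the filter on low counts, of which 20 were called higher, 8 lower and 5 neither, and their median log2 fold change was 0.60 against 0.02 over all genes tested. In normalised counts, both Ezh2 cKO libraries lay above both Ezh2 f/f libraries for 23 members (beside 42.8% of all genes tested) and below them for 9 (beside 41.5%), and only Lrp1 overlapped.

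Markers of several cell types differed between the genotypes as well. The 14 astrocyte markers summed to between 910 and 966 CPM (counts scaled to the normalised library size) in Ezh2 f/f and to between 3788 and 4173 CPM in Ezh2 cKO, with 13 called higher, 0 lower and a median log2 fold change of 2.00. The 15 neuron markers summed to more than the astrocyte markers in every library, from 7732 to 8202 CPM in Ezh2 f/f and from 10101 to 10140 CPM in Ezh2 cKO, with 11 called higher and 2 lower. Oligodendrocyte markers summed to between 89.8 and 101 CPM in Ezh2 f/f and to between 758 and 882 CPM in Ezh2 cKO, with 9 of 10 tested called higher. Oligodendrocyte precursor markers, of which 9 of 10 were called higher, went from between 248 and 251 CPM to between 635 and 700 CPM. Microglia markers, of which 12 of 12 were called higher, went from between 123 and 125 CPM to between 317 and 377 CPM. Neural progenitor markers went from between 259 and 287 CPM to between 137 and 138 CPM, with 9 of 10 called lower. Endothelial markers summed to between 342 and 359 CPM and between 380 and 438 CPM, with 3 of 10 called higher and 1 lower. No marker was at 0 in every library. In these bulk samples fewer cells of a type and less RNA per cell cannot be told apart, and the part of these shifts in the values of the members was not tested.

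**Figure D1:**
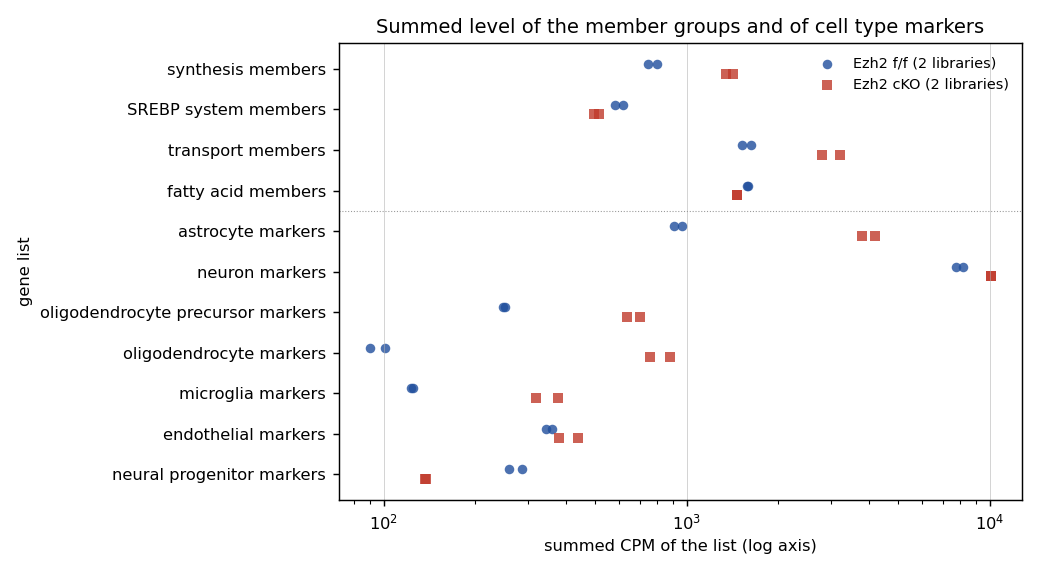
Summed CPM (horizontal log axis) of the 4 groups of members and of 7 lists of cell type markers in each of the 2 Ezh2 f/f libraries (blue circles) and 2 Ezh2 cKO libraries (red squares). The synthesis members move from between 747 and 796 CPM to between 1352 and 1426 CPM, while astrocyte markers move from between 910 and 966 CPM to between 3788 and 4173 CPM.

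Most enzymes of cholesterol synthesis were higher in the Ezh2 cKO libraries. Of the 16 enzymes, 13 were called higher (81.2%, beside 34.7% of all genes), 1 was lower (6.25%, beside 33.6%), and Fdft1 and Lss did not pass the test. With at least a 1.5-fold change, 11 were higher, beside 27.5% of all genes, and 1 lower, beside 24.7%. The median log2 fold change of the enzymes was 0.80, and their summed FPKM went from 188 and 201 in the Ezh2 f/f libraries to 370 and 389 in the Ezh2 cKO libraries. The called enzymes lie in each stretch of the pathway, before and after lanosterol.

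At the entry to the mevalonate pathway, Hmgcs1, which forms the HMG-CoA that feeds the committed step, had 29.2 and 31.6 FPKM in Ezh2 f/f and 82.3 and 97.2 FPKM in Ezh2 cKO. It was the most abundant of the 16 enzymes by mean FPKM, ranking number 889 of all genes, and it was 2.78-fold higher in Ezh2 cKO (log2 fold change 1.48, standard error 0.10, adjusted p = 1.36e-08). Mvk, which phosphorylates mevalonate, had 18.1 and 18.7 FPKM in Ezh2 f/f and 32.3 and 32.1 FPKM in Ezh2 cKO (log2 fold change 0.73, standard error 0.09, adjusted p = 8.88e-06). Pmvk, which adds the next phosphate, rose more, from 15.9 and 19.5 FPKM to 49.3 and 46.2 FPKM (log2 fold change 1.35, standard error 0.11, adjusted p = 1.12e-07). Mvd, which decarboxylates the product to isopentenyl diphosphate, rose from 26.5 and 29.0 FPKM to 44.1 and 42.7 FPKM (log2 fold change 0.56, standard error 0.10, adjusted p = 1.29e-04). For these 4 enzymes both Ezh2 cKO libraries lay above both Ezh2 f/f libraries.

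The enzymes that act on isopentenyl diphosphate were measured at low levels. Idi1, which isomerises it, had 1.40 and 1.44 FPKM in Ezh2 f/f and 3.37 and 3.92 FPKM in Ezh2 cKO (log2 fold change 1.28, standard error 0.18, adjusted p = 2.28e-05). Fdps, which makes farnesyl diphosphate, went the other way, from 115 and 101 counts to 61 and 36 counts (log2 fold change -1.25, standard error 0.26, adjusted p = 7.06e-04). Of the 16 enzymes it alone was called lower in the edgeR test, and without Ezh2 cKO replicate 2 its log2 fold change was -0.92 while without Ezh2 cKO replicate 1 it was -1.66. Whenever a library is left out, its genotype keeps 1 library, which is assumed to vary like those of the other genotype. The count of Fdps is uncertain, because other annotated genes carry nearly the same sequence. In GENCODE M21, the transcript of the protein-coding gene Gm43738 covers 81.6% of the Fdps transcript at 100% identity, and the processed pseudogene Gm3571 covers 76.8% of it with an identity of up to 98.9%. Gm3571 was itself assigned more counts than Fdps, with 182 and 194 in Ezh2 f/f against 212 and 186 in Ezh2 cKO. Of Idi1, pseudogene copies covered at most 22.6% of the transcript. How far reads were lost or moved between these copies was not tested.

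Along the squalene steps the changes differed. Fdft1, squalene synthase, was the second most abundant of the 16 enzymes and had 37.5 and 39.7 FPKM in Ezh2 f/f and 46.9 and 45.8 FPKM in Ezh2 cKO. Its groups did not overlap, but its log2 fold change of 0.18 did not pass the test (standard error 0.09, adjusted p = 0.0815). Fdft1 transcripts share sequence with those of Ctsb and of the pseudogene Gm6781. Sqle, squalene epoxidase, rose 1.98-fold, from 12.8 FPKM in each Ezh2 f/f library to 24.5 and 29.3 FPKM (log2 fold change 0.99, standard error 0.10, adjusted p = 9.82e-07). Lss, which folds the epoxide into lanosterol, had 4.13 and 3.48 FPKM in Ezh2 f/f and 3.61 and 3.65 FPKM in Ezh2 cKO, so that its groups overlapped in FPKM, though not in CPM (log2 fold change -0.15, standard error 0.11, adjusted p = 0.228). Sqle and Lss catalyse consecutive steps, and the enzyme before and the enzyme after Lss were both called higher.

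After lanosterol, all 7 enzymes were called higher. Cyp51, lanosterol demethylase, rose least, from 11.4 and 11.9 FPKM to 16.1 and 17.5 FPKM (log2 fold change 0.45, standard error 0.09, adjusted p = 6.96e-04). Msmo1, Nsdhl and Hsd17b7 together remove the remaining methyl groups from the sterol ring. Msmo1 rose from 4.33 and 5.41 FPKM to 10.7 and 12.1 FPKM (log2 fold change 1.14, standard error 0.12, adjusted p = 9.90e-07). Nsdhl rose 2.82-fold, from 6.96 and 6.74 FPKM to 19.8 and 21.3 FPKM (log2 fold change 1.5, standard error 0.10, adjusted p = 2.37e-08). Hsd17b7 stayed low, with 1.36 and 1.26 FPKM in Ezh2 f/f and 2.29 and 2.85 FPKM in Ezh2 cKO (log2 fold change 0.88, standard error 0.18, adjusted p = 4.95e-04).

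The largest fold change of the 16 enzymes was that of Ebp, the sterol isomerase, which was 3.62-fold higher in Ezh2 cKO. It had 2.27 and 2.02 FPKM in Ezh2 f/f and 8.37 and 8.15 FPKM in Ezh2 cKO (log2 fold change 1.86, standard error 0.17, adjusted p = 2.64e-07). Of all genes tested, 92.1% had a lower log2 fold change than Ebp. Sc5d, the desaturase that follows, rose from 6.12 and 6.38 FPKM to 10.3 FPKM in each Ezh2 cKO library (log2 fold change 0.64, standard error 0.10, adjusted p = 6.03e-05). Dhcr7, which reduces the last double bond in a branch of the pathway and is mutated in Smith-Lemli-Opitz syndrome, rose from 8.50 and 9.62 FPKM to 14.9 and 15.2 FPKM (log2 fold change 0.65, standard error 0.10, adjusted p = 4.81e-05). In each of these 3 genes the difference between the genotypes exceeded the spread between libraries.

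**Figure D2:**
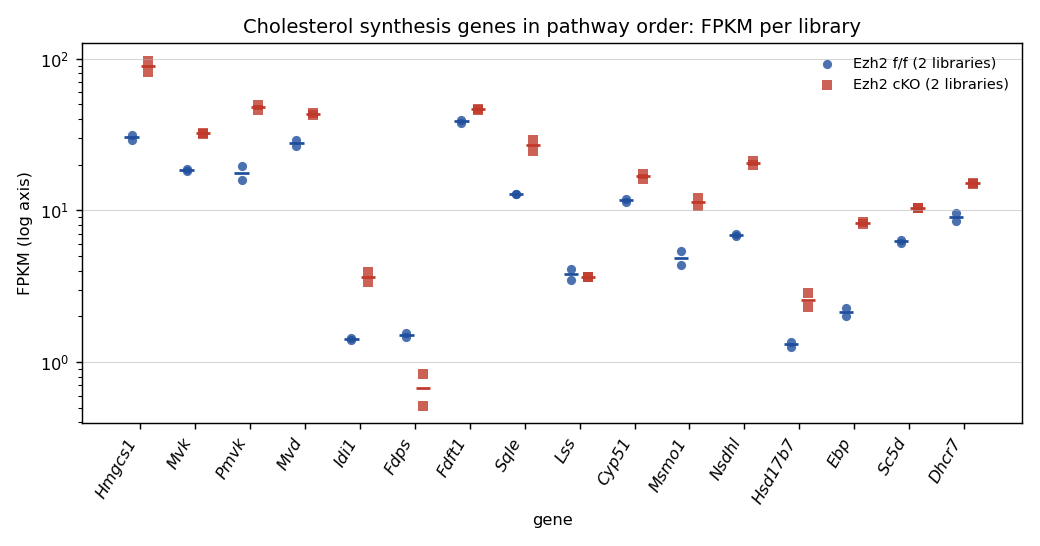
FPKM (vertical log axis) of the 16 cholesterol synthesis enzymes in pathway order in each of the 2 Ezh2 f/f libraries (blue circles) and 2 Ezh2 cKO libraries (red squares), with bars at the group means. Hmgcs1 moves from 29.2 and 31.6 FPKM to 82.3 and 97.2 FPKM, whereas Fdft1 and Lss stay close and Fdps is the only enzyme whose Ezh2 cKO libraries lie below.

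Other genes of the synthesis pathway were less uniform. Of 9 such genes, 8 had enough counts to be tested, with a median log2 fold change of 0.20. Of these, 3 were called higher (37.5%, beside 34.7% of all genes) and 2 lower (25.0%, beside 33.6%). Dhdds, which draws isoprenoids into dolichol, was at 1.05 (adjusted p = 2.24e-07), the sterol reductase Tm7sf2 at 0.89 (adjusted p = 5.37e-06) and the acetyl-CoA acetyltransferase Acat2 at 0.38 (adjusted p = 0.00467). Cyb5r3, a reductase that supplies electrons to several of these steps, was at -0.52 (adjusted p = 9.88e-05).

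Because most synthesis enzymes were higher together, their promoters were examined for the letters bound by factors known to control them. RefSeq promoters on GRCm38.p6, from 250 bases before to 50 bases after a start site, were given for 25 of the 33 members, 13 of them synthesis enzymes. The search covered both strands for exact matches to TCACNCCAC (the core of a sterol regulatory element, bound by SREBP) and CCAAT (the box bound by NF-Y, with which SREBP acts). It also covered CACGTG (an E-box) and the consensus of an LXR element, an exact direct repeat of AGGTCA with a spacer of 4 bases. CCAAT stood in at least 1 promoter of 13 of the 13 synthesis enzymes, against 41.1% of all genes with a promoter, and at least 2 times within a window in 9 of them, against 13.3%. Lss, which did not pass the test, is among the 13. Counted by window, 13 of 16 synthesis windows held it (81.2%), beside 37.4% of all windows, as did 4 of 7 windows of the SREBP system genes (57.1%) and 2 of 10 windows of transport genes (20%). CACGTG was in 3 of the 16 synthesis windows (18.8%, beside 7.15% of all windows) and in a larger share of the SREBP system windows, 3 of 7 (42.9%). TCACNCCAC was in 1 of the 16, that of Hmgcs1 (6.25%, beside 1.24% of all windows). The exact AGGTCA repeat was in none of the members' windows, beside 0.0152% of all windows. Sites that differ from these letters by even 1 base were not counted, so these shares do not show that such elements are absent. A match is a description of the letters and not evidence of binding.

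The promoters of 4 synthesis enzymes that rose and of Fasn, a fatty acid enzyme that fell, are shown to compare these letters. They lie at chr13:119690101-119690400, plus strand (Hmgcs1), at chr5:114444019-114444318, plus strand (Mvk), at chrX:72918271-72918570, plus strand (Nsdhl), at chr8:64733529-64733828, minus strand (Msmo1) and at chr11:120824498-120824797, minus strand (Fasn), each written 5′ to 3′ along the gene. Capitals mark CCAAT or its complement ATTGG, and in Hmgcs1 also the TCACNCCAC match that begins 137 bases before the start. In Fasn a CCAAT and an ATTGG overlap.
Hmgcs1: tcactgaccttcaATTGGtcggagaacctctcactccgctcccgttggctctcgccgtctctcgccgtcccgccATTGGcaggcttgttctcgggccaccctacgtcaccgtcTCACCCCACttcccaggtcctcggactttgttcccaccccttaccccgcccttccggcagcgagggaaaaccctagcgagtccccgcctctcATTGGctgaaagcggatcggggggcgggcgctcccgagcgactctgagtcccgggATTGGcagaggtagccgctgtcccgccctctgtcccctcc
Mvk: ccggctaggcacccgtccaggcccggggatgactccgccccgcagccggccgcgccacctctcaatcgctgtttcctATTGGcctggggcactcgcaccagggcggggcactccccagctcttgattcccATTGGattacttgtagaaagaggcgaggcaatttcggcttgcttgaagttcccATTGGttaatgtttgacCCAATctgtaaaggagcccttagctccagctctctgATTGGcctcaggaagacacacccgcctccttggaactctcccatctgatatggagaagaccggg
Nsdhl: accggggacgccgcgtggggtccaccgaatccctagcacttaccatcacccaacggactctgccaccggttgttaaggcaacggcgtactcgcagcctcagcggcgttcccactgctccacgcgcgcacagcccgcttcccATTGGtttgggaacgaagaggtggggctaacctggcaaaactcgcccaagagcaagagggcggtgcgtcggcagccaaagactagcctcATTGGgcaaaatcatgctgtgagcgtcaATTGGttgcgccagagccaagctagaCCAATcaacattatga
Msmo1: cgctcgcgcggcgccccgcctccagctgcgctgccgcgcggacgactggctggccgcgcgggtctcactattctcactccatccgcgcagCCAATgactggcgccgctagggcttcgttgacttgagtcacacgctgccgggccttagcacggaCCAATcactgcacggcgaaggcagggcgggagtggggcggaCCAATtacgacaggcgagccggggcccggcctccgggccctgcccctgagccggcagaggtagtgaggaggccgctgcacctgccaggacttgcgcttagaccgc
Fasn: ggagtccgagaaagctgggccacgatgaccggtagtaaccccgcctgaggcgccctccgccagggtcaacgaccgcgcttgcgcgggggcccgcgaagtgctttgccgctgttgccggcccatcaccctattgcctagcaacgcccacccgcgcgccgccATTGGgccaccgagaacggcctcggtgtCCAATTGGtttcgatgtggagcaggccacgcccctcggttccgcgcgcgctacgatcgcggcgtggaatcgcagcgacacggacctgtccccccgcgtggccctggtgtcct
The 4 synthesis promoters hold between 3 and 5 matches to CCAAT each. Among other synthesis enzymes called higher, Hsd17b7 holds 3, Mvd, Idi1 and Ebp hold 2 each, and Cyp51 and Sc5d hold 1 each. Pmvk and Dhcr7, also called higher, have several windows, which hold 1 and 0 matches (Pmvk) and 0, 0 and 2 matches (Dhcr7). The Fasn promoter holds 3.

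The SREBP system itself did not rise with the enzymes. Of its 4 genes, 0 were called higher and 3 lower (75.0%, beside 33.6% of all genes), with a median log2 fold change of -0.40. Srebf2, which encodes the SREBP that mainly drives cholesterol synthesis, was the most abundant, with 37.6 and 35.3 FPKM in Ezh2 f/f and 41.1 and 40.3 FPKM in Ezh2 cKO (log2 fold change 0.08, standard error 0.08, adjusted p = 0.433). Srebf1, which encodes the SREBP that mainly drives fatty acid synthesis, fell 2.1-fold, from 16.8 and 16.3 FPKM to 8.58 and 8.06 FPKM (log2 fold change -1.07, standard error 0.10, adjusted p = 2.63e-07). The counts do not separate the Srebf1 isoforms.

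Both partners that hold or move SREBP in the endoplasmic reticulum were lower. Scap, the sterol-sensing escort, had 22.2 and 20.3 FPKM in Ezh2 f/f and 16.1 and 16 FPKM in Ezh2 cKO (log2 fold change -0.49, standard error 0.09, adjusted p = 2.86e-04). Insig1, which retains the SREBP and SCAP complex and is itself an SREBP target, had 23.0 and 20.8 FPKM in Ezh2 f/f and 18.5 and 19.0 FPKM in Ezh2 cKO (log2 fold change -0.31, standard error 0.09, adjusted p = 0.00994). The call for Insig1 was lost without Ezh2 f/f replicate 1 (log2 fold change -0.24, adjusted p = 0.0624), without Ezh2 cKO replicate 1 (-0.30, adjusted p = 0.0729) and without Ezh2 cKO replicate 2 (-0.31, adjusted p = 0.0721), and over all alternatives its adjusted p ranged from 0.00524 to 0.0729.

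Further genes of SREBP processing and sterol uptake moved in both directions. Of 12 such genes, 5 were called higher (41.7%, beside 34.7% of all genes) and 4 lower (33.3%, beside 33.6%). Their median log2 fold change was 0.15. Mbtps1, the protease that makes the first cut in SREBP, fell from 3255 and 2794 counts to 1501 and 1466 counts (log2 fold change -1.12, adjusted p = 1.07e-07). Erlin2, which takes part in sterol-regulated protein degradation, was at -0.63 (adjusted p = 5.32e-05). The genes called higher included Stard4, a sterol carrier (1.11, adjusted p = 4.33e-06), Mylip, an LXR-induced ubiquitin ligase (1.23, adjusted p = 4.59e-06), and Insig2, the paralogue of Insig1 (0.58, adjusted p = 0.00152).

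**Figure D3:**
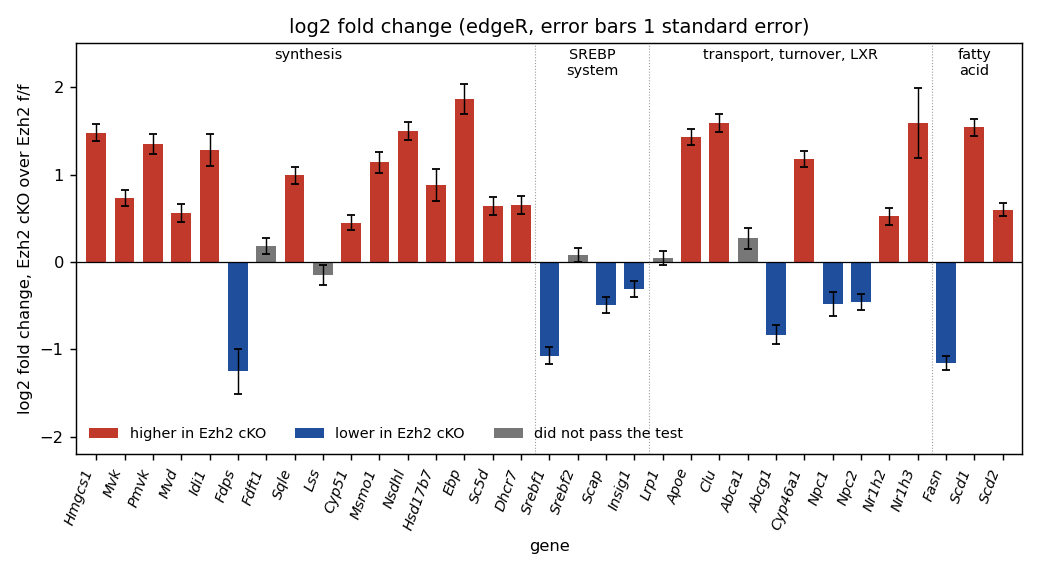
Bars give the log2 fold change (vertical axis, Ezh2 cKO over Ezh2 f/f, edgeR) of all 33 genes by role, with error bars of 1 standard error and colours for the call at an adjusted p under 0.05. Synthesis enzymes lie between -1.25 (Fdps) and 1.86 (Ebp), and the genes of the SREBP system between -1.07 (Srebf1) and 0.08 (Srebf2).

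Apoe, Clu, Cyp46a1 and both oxysterol receptors rose, while Abcg1, Npc1 and Npc2 fell and Abca1 and Lrp1 did not pass the test. Of the 10 genes of transport, turnover and oxysterol sensing, 5 were called higher (50%, beside 34.7% of all genes), 3 lower (30%, beside 33.6%) and 2 neither, with a median log2 fold change of 0.39. Apoe, the main apolipoprotein of the brain, was the most abundant member and ranked number 43 of all genes by mean FPKM. It had 278 and 308 FPKM in Ezh2 f/f and 905 and 765 FPKM in Ezh2 cKO, a 2.69-fold difference (log2 fold change 1.43, standard error 0.09, adjusted p = 1.31e-08). Clu, which encodes clusterin, rose 3.00-fold, from 36.4 and 42.3 FPKM to 127 and 124 FPKM (log2 fold change 1.59, standard error 0.10, adjusted p = 6.30e-09). Astrocytes express both genes and microglia also express Apoe, and the summed markers of both cell types were higher in Ezh2 cKO. The part of these cells in the rise of Apoe and Clu was not tested.

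Of the members that encode exporters and a lipoprotein receptor, Abcg1 was called lower, and Abca1 and Lrp1 did not pass the test. Abca1, which loads cholesterol onto lipid-poor apolipoproteins, had 2.09 and 2.35 FPKM in Ezh2 f/f and 2.77 and 2.90 FPKM in Ezh2 cKO and did not pass the test (log2 fold change 0.27, standard error 0.12, adjusted p = 0.0615). Abcg1, which exports cholesterol to formed lipoproteins, fell 1.78-fold, from 6.26 and 6.96 FPKM to 4.03 and 3.84 FPKM (log2 fold change -0.83, standard error 0.11, adjusted p = 1.01e-05). Lrp1, an endocytic receptor for these lipoproteins, had 24.0 and 24.1 FPKM in Ezh2 f/f and 26.8 and 25.4 FPKM in Ezh2 cKO, while its normalised counts overlapped between the groups (log2 fold change 0.04, standard error 0.08, adjusted p = 0.690).

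The oxysterol receptors that induce Abca1, Abcg1 and Apoe were both higher, at very different levels. Nr1h2, which encodes LXRβ, rose from 13.2 and 13.4 FPKM to 21.4 and 19.0 FPKM (log2 fold change 0.52, standard error 0.10, adjusted p = 2.99e-04). Nr1h3, which encodes LXRα, was the least abundant member, with 11 and 13 counts in Ezh2 f/f against 49 and 29 counts in Ezh2 cKO (log2 fold change 1.59, standard error 0.40, adjusted p = 0.00290). This call was lost without Ezh2 cKO replicate 1 (log2 fold change 1.18, adjusted p = 0.0910, the highest of its alternatives, which reached down to 5.46e-04).

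Cyp46a1 rose, and Npc1 and Npc2, which move cholesterol out of the lysosome, were called lower. Cyp46a1, which hydroxylates cholesterol for export from the brain and is expressed mainly by neurons, rose 2.26-fold, from 20.1 and 19.9 FPKM to 48.7 and 47.5 FPKM (log2 fold change 1.18, standard error 0.09, adjusted p = 6.84e-08). Neuron markers were present in every library, as given above, and the cells from which Cyp46a1 was read were not tested. Npc2, which lifts cholesterol from lysosomal membranes, fell from 25.0 and 25.6 FPKM to 20.1 and 18.7 FPKM (log2 fold change -0.46, standard error 0.09, adjusted p = 5.15e-04). Npc1, which takes cholesterol over from Npc2, had 2.17 and 1.79 FPKM in Ezh2 f/f and 1.55 and 1.46 FPKM in Ezh2 cKO (log2 fold change -0.48, standard error 0.14, adjusted p = 0.00766). The call for Npc1 was lost without Ezh2 f/f replicate 1 (log2 fold change -0.34, adjusted p = 0.0583) and without Ezh2 cKO replicate 2 (-0.42, adjusted p = 0.0874), and its alternatives spanned 1.79e-04 to 0.110.

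**Figure D4:**
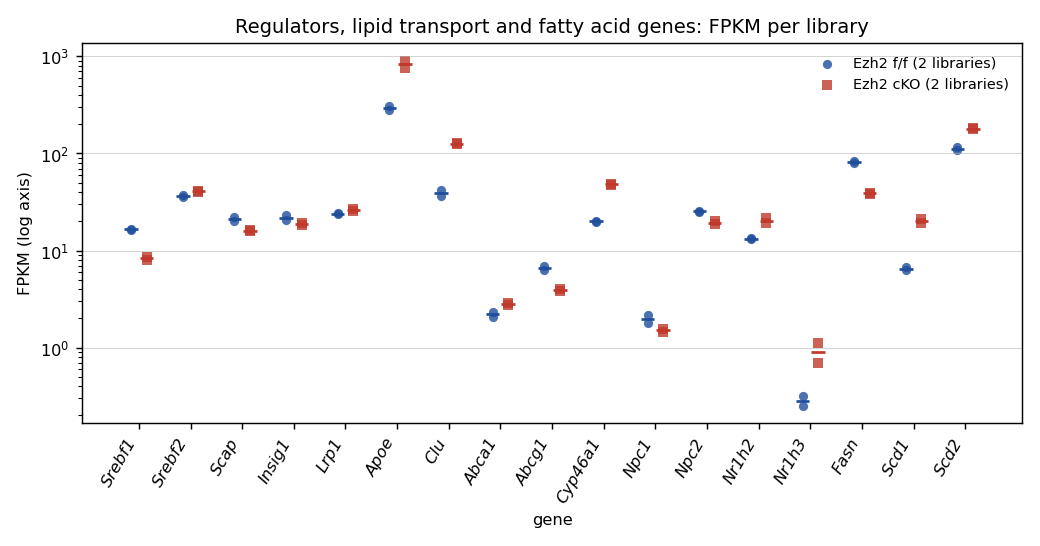
FPKM (vertical log axis) of the 17 genes of the SREBP system, lipid transport and turnover, and fatty acid synthesis in each of the 2 Ezh2 f/f libraries (blue circles) and 2 Ezh2 cKO libraries (red squares), with bars at the group means. Apoe stands highest, at 278 and 308 against 905 and 765 FPKM, and Fasn falls from 84.5 and 78.9 to 38.7 and 39.1 FPKM while Scd1 rises from 6.28 and 6.77 to 21 and 19.0 FPKM.

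Of 30 further transport and storage genes, 26 had enough counts to be tested, with a median log2 fold change of 0.68. Of these, 14 were called higher (53.8%, beside 34.7% of all genes) and 9 lower (34.6%, beside 33.6%). Those called higher with the strongest evidence were Nceh1, which hydrolyses cholesteryl esters (log2 fold change 2.89, adjusted p = 6.19e-10), Osbpl1a, an oxysterol-binding protein gene (2.19, adjusted p = 7.09e-10), and Lcat, which esterifies cholesterol on lipoproteins. Lcat had 33 and 55 counts in Ezh2 f/f against 453 and 344 counts in Ezh2 cKO (3.08, adjusted p = 5.78e-08). Those called lower with the strongest evidence were Apod, an apolipoprotein gene, from 2437 and 2288 counts to 623 and 487 counts (-2.18, adjusted p = 1.72e-09), the lysosomal membrane gene Scarb2 (-0.99, adjusted p = 2.67e-07) and the lipoprotein receptor gene Lrp8 (-0.89, adjusted p = 1.21e-06). Apod thus fell in the same libraries in which Apoe and Clu rose. Among genes singled out after their values were seen, the exporter genes Abcg4 (1.00, adjusted p = 4.61e-07) and Abca7 (1.25, adjusted p = 1.72e-05) were called higher, unlike Abca1 and Abcg1. Lipa, the lysosomal lipase that frees cholesterol from its esters, was also called higher (0.65, adjusted p = 0.00217), unlike Npc1 and Npc2.

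Of the 3 fatty acid members, Fasn fell and both stearoyl-CoA desaturases rose. Fasn, which builds palmitate and is a target of SREBP1, had 84.5 and 78.9 FPKM in Ezh2 f/f and 38.7 and 39.1 FPKM in Ezh2 cKO, a 2.23-fold fall (log2 fold change -1.15, standard error 0.08, adjusted p = 1.60e-08). The stearoyl-CoA desaturases turn saturated into monounsaturated fatty acids. Scd1 rose 2.90-fold, from 6.28 and 6.77 FPKM to 21 and 19.0 FPKM (log2 fold change 1.54, standard error 0.10, adjusted p = 1.52e-08). Scd2, the main brain isoform, ranked number 284 of all genes and rose 1.51-fold, from 108 and 117 FPKM to 177 and 183 FPKM (log2 fold change 0.60, standard error 0.08, adjusted p = 1.03e-05). Scd2 is also abundant in myelinating oligodendrocytes, whose summed markers were higher in Ezh2 cKO, and their part in its rise was not tested.

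Of 27 further genes of fatty acid metabolism, 26 were tested, and 18 were called higher (69.2%, beside 34.7% of all genes) and 6 lower (23.1%, beside 33.6%). Called higher with the lowest p-values were the acyl-CoA synthetases Acsbg1 (log2 fold change 2.68, adjusted p = 4.24e-10), Acsl5 (2.70, adjusted p = 7.46e-10) and Acsl4 (2.75, adjusted p = 1.15e-08). Acsbg1 is itself a known marker of astrocytes. Called lower with the lowest p-values were the elongase Elovl2 (-0.85, adjusted p = 3.61e-06), Acaca, which makes the malonyl-CoA used by fatty acid synthase (-0.47, adjusted p = 2.98e-04), and the desaturase Fads1 (-0.40, adjusted p = 7.55e-04). Acaca and Fasn, which act in sequence on cytosolic acetyl-CoA, were thus both lower, whereas Acss2 (2.22, adjusted p = 2.23e-08) and Me1 (1.45, adjusted p = 4.50e-08), which supply acetyl-CoA and NADPH and were singled out after their values were seen, were called higher.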

How the data were processed

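RNA of P5 cortical astrocytes was sequenced in 4 libraries, 2 of each genotype. The authors deposited the count of reads per gene without normalisation, and FPKM values, which equal these counts divided by library total and gene length. The submitters' processing notes name Bowtie2 2.2.3, TopHat2 2.0.12, HTSeq 0.6.0 and mm9, whereas the annotation and the use of strand are not given in the sources used here. Only 1 of the 33 members has the position it has in GENCODE M21 (GRCm38), so deposited positions were not used, nor were the authors' own comparison columns (mean, ratio, log2 value and p-values). Members were taken by symbol, and members, gene lists and tests were chosen with earlier results of these data known.

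Genes were filtered with filterByExpr, scaled by TMM (factors from 0.967 to 1.04) and tested with edgeR 4.0.16 (R 4.3.3), with group alone in the model and Benjamini-Hochberg adjustment over 16793 genes. Standard errors are the log2 fold change over the square root of F. A permutation test of 2 against 2 libraries cannot give a p under 0.333. Libraries of a group differed beyond counting noise (chi-square per degree of freedom 8.92 and 5.68). A count of 3 corresponds to between 0.171 and 0.184 CPM. Alternatives were DESeq2 1.42.0, other size factors, no filter or a mean of at least 50 counts, limma 3.58.1 on log2(FPKM + 1) and log2(FPKM + 0.1), a block for the replicate number, leaving out single libraries, and a 2-fold threshold. Copies were searched with blastn at 95% identity against GENCODE M21 transcripts. In full were given members called with at least a 1.5-fold change and the 3 of highest mean FPKM in each role, and of other pathway genes up to 3 called in each direction with the smallest p. Some genes that this rule would name are not reported here. The tests were tried on simulated data.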

Additional observations from a re-analysis of the deposited data

How the results depend on the processing

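Over 13 alternative fits, 406 of 426 log2 fold changes of members kept their direction and their side of the threshold, 9 lost the call and 10 gained it. The one that turned was Lrp1, at -0.02 without Ezh2 cKO replicate 1. Calls were lost for Insig1, Npc1 and Nr1h3 and gained for Fdft1, Abca1 and Lss. Nr1h3 did not reach the filters of a mean of 50 counts or of FPKM. The cause was not tested where a value moved. The median log2 fold change was 0.89 (synthesis), -0.31 (SREBP system) and 0.68 (fatty acid) with library totals only, 0.88, -0.32 and 0.67 with upper-quartile factors, 0.73, -0.30 and 0.68, and 0.25 for transport, with limma on log2(FPKM + 1), and -0.31 (SREBP system) and 0.68 (fatty acid) with limma on log2(FPKM + 0.1). Leaving out 1 library in turn, the SREBP system median ran from -0.47 to -0.33, and the number of synthesis enzymes called lower from 1 to 2, with Lss as the second without Ezh2 f/f replicate 2. With at least a 2-fold change, 3185 of all genes tested were higher (19.0%) and 2352 lower (14.0%). Beside these shares, 6 of 16 synthesis enzymes were higher and 1 lower, and 0 of 4 SREBP system genes were higher and 1 lower. Of 10 transport members 4 were higher and 0 lower, and of 3 fatty acid members 1 was higher and 1 lower. Of the other genes tested, 1 of 8 synthesis genes was higher and 0 lower, and 2 of 12 regulator genes were higher and 2 lower. Of 26 other transport genes 6 were higher and 2 lower, and of 26 other fatty acid genes 10 were higher and 0 lower. The libraries share replicate numbers in the labels without a stated pairing. Deviations of same-numbered libraries correlated with 0.13 over 16793 genes, and with the replicate number as a block 13 synthesis enzymes were higher and 1 lower, 3 SREBP system genes were lower, and 5795 of all genes were higher and 5599 lower, which changed no call of a member. With 2 libraries per group, small differences such as those of Fdft1, Abca1 and Lss were near the limit of what could be detected.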

Other observations

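Within libraries, the balance between related genes was set beside their levels as FPKM ratios, chosen after the values were seen and given without a test. The ratio of Scd2 to Scd1 was 17.2 and 17.3 in Ezh2 f/f against 8.43 and 9.60 in Ezh2 cKO, and that of Scd2 to Fasn was 1.27 and 1.48 in Ezh2 f/f against 4.58 and 4.67 in Ezh2 cKO. Srebf2 exceeded Srebf1 by 2.24 and 2.17 times in Ezh2 f/f and by 4.79 and 5.0 times in Ezh2 cKO. Abca1 was at 0.334 and 0.338 times the FPKM of Abcg1 in Ezh2 f/f and at 0.688 and 0.754 times in Ezh2 cKO. The ratio of Hmgcs1 to Lss was 7.08 and 9.09 in Ezh2 f/f against 22.8 and 26.6 in Ezh2 cKO. Npc2 over Npc1 was 11.5 and 14.3 in Ezh2 f/f against 13 and 12.8 in Ezh2 cKO, and Apoe over Clu was 7.64 and 7.27 in Ezh2 f/f against 7.15 and 6.18 in Ezh2 cKO.

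Together the 33 genes took 0.436% and 0.444% of all counts in Ezh2 f/f against 0.666% and 0.642% in Ezh2 cKO. Most of this gain lay in the summed transport genes, from 0.148% and 0.158% to 0.327% and 0.291% of all counts. Apoe had the most counts of these genes, with 10422 and 10715 in Ezh2 f/f against 33534 and 27275 in Ezh2 cKO. Not all of them gained, and Abcg1, Npc1 and Npc2 were called lower. The 3 fatty acid enzymes took 0.154% in each Ezh2 f/f library and 0.150% and 0.152% in Ezh2 cKO.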
